A study of Mus musculus with 3 samples.

Results

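The regions described here are places in the mouse genome that a Runx1 chromatin immunoprecipitation enriched in each of 3 replicates of spinal cord. They were chosen by overlap: a region of replicate 1 was taken where it overlapped, by at least 1 bp, a region of replicate 2 and a region of replicate 3. This rule kept 246 of the 451 regions of replicate 1 (54.5%), out of 15286 regions in the 3 lists together. The 246 matched 240 distinct regions of replicate 2 and 233 of replicate 3, since some broad matches held more than 1 of them. The members were therefore selected on the measured peaks themselves, and their strength and their presence in the 3 lists are given as descriptions, with no test. The deposited values carry no replicate error within a list, so each value below belongs to 1 replicate.

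The study measured Runx1 binding by chromatin immunoprecipitation and sequencing in 1 group of samples, spinal cord of male C57BL/6J mice 8 to 10 weeks old. Cords were dissociated and fixed in batches of 5, the chromatin was cut with micrococcal nuclease and sonication to about 150 to 900 bp, and each immunoprecipitation used 9 µg of a rabbit polyclonal antibody on about 10 µg of chromatin pooled from 10 cords. The cells were not sorted, so every cell type of the dissociated cord could contribute, and the labels do not say how animals were divided between replicates. The deposited files carry the abbreviation Sal, which the labels do not explain, so a treatment common to all 3 replicates cannot be told from them. For replicate 3 the label field for tissue describes the antibody instead, so the title served to assign it. The lists differ in length, with 451, 1641 and 13194 regions in replicates 1, 2 and 3.

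Runx1 is a transcription factor of the RUNX family, which binds DNA as a dimer with Cbfb through its Runt domain and reads a short core sequence. It is best known for its part in blood formation, and in the nervous system it is found in microglia, the resident macrophages, and in a class of sensory neurons. A region in a peak list marks chromatin recovered with the antibody, whether the protein touched the DNA itself or came with another factor.

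Promoter sequences are shown here for the best ranked members, because the palindrome CACGTG recurred in them close to the point of highest signal. CACGTG is an E-box, the site read by several basic helix-loop-helix factors, among them the MiT/TFE factors of lysosomal genes, the Myc family and the clock factors. Each stretch is from RefSeq (GRCm38.p6), reads 5′ to 3′ in the direction of the named gene, and has each CACGTG in capitals. The stretches lie upstream of the annotated start: chr17:24163734-24163883 on the minus strand for Amdhd2, and on the plus strand chr12:110591224-110591373 for B930059L03Rik, chr8:13159011-13159160 for Lamp1, chr4:127077233-127077382 for Zmym6, chr3:67582618-67582767 for Mfsd1, chr3:89773401-89773550 for Ube2q1 and chr8:3500369-3500518 for Mcoln1.
Amdhd2: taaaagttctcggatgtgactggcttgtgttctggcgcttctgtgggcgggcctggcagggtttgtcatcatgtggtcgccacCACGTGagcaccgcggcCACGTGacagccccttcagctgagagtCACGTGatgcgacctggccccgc
B930059L03Rik: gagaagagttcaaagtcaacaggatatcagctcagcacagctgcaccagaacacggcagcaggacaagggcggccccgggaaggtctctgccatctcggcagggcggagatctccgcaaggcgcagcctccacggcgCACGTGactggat
Lamp1: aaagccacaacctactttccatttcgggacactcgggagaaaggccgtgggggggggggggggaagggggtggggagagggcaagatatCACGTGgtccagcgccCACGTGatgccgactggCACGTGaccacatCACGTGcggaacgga
Zmym6: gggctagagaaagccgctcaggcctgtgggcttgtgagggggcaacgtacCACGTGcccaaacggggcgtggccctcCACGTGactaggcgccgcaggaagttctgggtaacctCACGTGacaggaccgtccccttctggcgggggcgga
Mfsd1: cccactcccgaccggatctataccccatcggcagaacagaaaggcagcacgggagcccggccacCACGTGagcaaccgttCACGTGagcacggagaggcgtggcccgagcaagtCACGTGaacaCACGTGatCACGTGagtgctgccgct
Ube2q1: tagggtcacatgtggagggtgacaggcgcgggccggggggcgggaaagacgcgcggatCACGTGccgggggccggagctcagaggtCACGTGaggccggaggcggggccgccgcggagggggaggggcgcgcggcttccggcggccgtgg
Mcoln1: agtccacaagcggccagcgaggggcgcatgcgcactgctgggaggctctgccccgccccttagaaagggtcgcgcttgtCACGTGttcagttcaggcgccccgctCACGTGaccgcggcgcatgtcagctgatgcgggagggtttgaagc

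The E-boxes of these promoters mostly sat near the summits. The centre of the nearest CACGTG lay 9.5, 12.5 and 4.5 bp from the strongest summit of replicates 1, 2 and 3 at Amdhd2, and 25.5, 4.5 and 5.5 bp at Lamp1. At Mfsd1, whose stretch holds 5 copies, the distances were 9.5, 7.5 and 11.5 bp, and at Mcoln1 13.5, 8.5 and 6.5 bp. Zmym6 had 14.5, 27.5 and 8.5 bp, and Ube2q1 had 5.5 and 0.5 bp in replicates 1 and 2 but 102.5 bp in replicate 3. At B930059L03Rik, a long non-coding RNA gene, the nearest copy in its promoter window lay 380.5, 419.5 and 364.5 bp away. The summits there stood 370, 409 and 354 bp after the start, and no sequence beyond 50 bp after it was searched. The core motif of RUNX factors, TGTGGT on either strand, was also present at Amdhd2, 38.5 bp from the replicate 1 summit, and between E-boxes at Lamp1, where it reads ACCACA, 32.5 bp from it. At Hexa, the next member by rank with a RUNX core in its window, the core lay 385.5 bp from the summit, upstream of the region itself. The replicate 1 summit of Hexa stood 153 bp after the start, also beyond the searched window. The stretch of the Hexa promoter (chr9:59539290-59539439, plus strand, RefSeq GRCm38.p6) has the core in capitals and no CACGTG.
Hexa: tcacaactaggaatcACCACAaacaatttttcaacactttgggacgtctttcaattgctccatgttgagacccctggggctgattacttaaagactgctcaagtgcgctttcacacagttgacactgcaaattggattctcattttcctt

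Fold is the authors' enrichment over background at a region's strongest summit. Its median over the 246 members was 5.14, 4.63 and 6.66 in replicates 1, 2 and 3, against 4.67, 3.94 and 3.80 for the regions of each list outside the set. The lowest and highest were 3.04 and 36.8 in replicate 1, 2.90 and 26.7 in replicate 2, and 2.88 and 24.5 in replicate 3. Members stood higher within the longer lists: the median percentile of fold was 59.0, 74.8 and 93.7. Broad matches take the fold of the strongest of several summits, so these percentiles are not independent of the rule. Fold was highest in replicate 3 for 153 members, in replicate 1 for 76 and in replicate 2 for 17. A fold of 5 or more in all 3 replicates was reached by 64 members, and 21 stood in the top 10% of every list. In contrast, 33 stood in the lowest 10% of at least 1 list, so presence in all 3 lists did not mean strength in each.

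**Figure D1:**
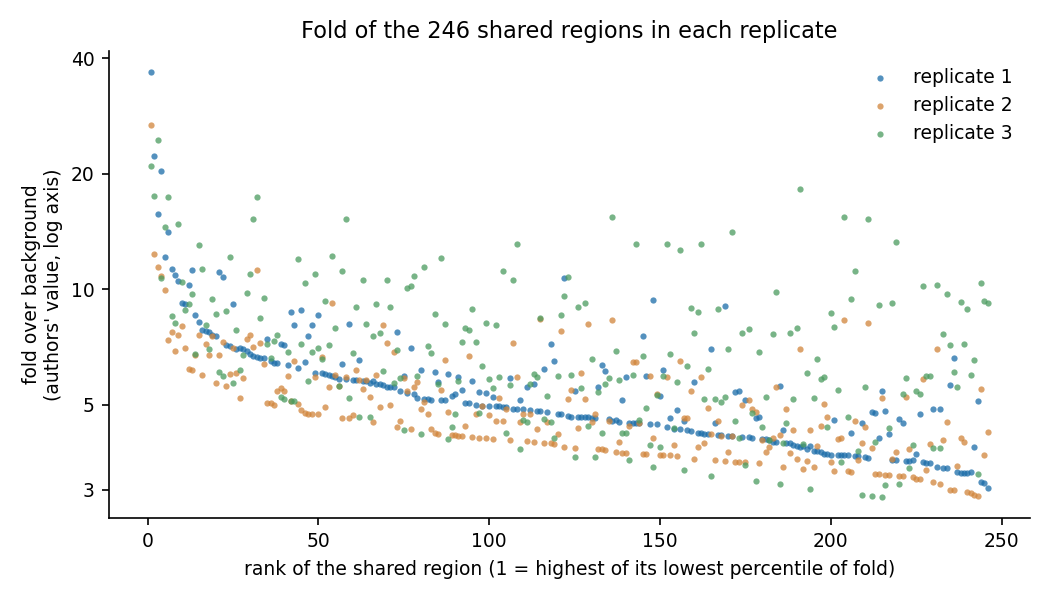
Fold over background of the 246 shared regions (log axis) against their rank, with 1 point for each replicate. Values run from 36.8 to 3.04 in replicate 1, from 26.7 to 2.90 in replicate 2 and from 24.5 to 2.88 in replicate 3, and replicate 3 is highest at 153 of the 246.

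The peak positions were close for many members and far apart for some. The 3 strongest summits lay within 100 bp of each other in 109 members and within 200 bp in 141. In 26 members some pair of strongest summits was over 1 kb apart, so overlap there did not mean a common maximum. At the edge of the rule, the smallest overlaps were 5 bp at Tmod2, an actin filament capping protein, 31 bp at Hdlbp, an RNA-binding protein, and 33 bp at Foxo3, a forkhead transcription factor. Their folds in replicates 1, 2 and 3 were 3.67, 3.59 and 3.79 at Tmod2, 3.70, 4.08 and 5.48 at Hdlbp, and 4.04, 3.87 and 4.04 at Foxo3. Just outside it were regions of replicate 1 at Irs2, Brwd1 and Samd1, which missed a match by gaps of 1, 2 and 3 bp and had folds of 4.65, 3.58 and 4.16 in replicate 1. Of the 205 regions of replicate 1 outside the set, 181 overlapped replicate 3 but not replicate 2, 3 overlapped replicate 2 but not replicate 3, and 21 overlapped neither.

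Most members lay at gene starts. The authors' annotation put 206 of 246 (83.7%, 95% Wilson interval 78.6 to 87.8) in the promoter class within 1 kb of a start, and 145 reached over the start itself. Another 8 lay in the class 1 to 2 kb from a start and 2 in the class 2 to 3 kb from one. The promoter class held 81.5% (75.6 to 86.2) of the other regions of replicate 1, an interval that overlaps the one above, and 71.4% and 62.6% of the full lists of replicates 2 and 3. Where a RefSeq start lay within 1 kb, as it did for 163 members, the strongest summit stood at a median absolute distance of 130, 130 and 136 bp from it in replicates 1, 2 and 3. The signed medians, upstream negative, were -38, -37 and -25 bp, and in replicate 1 95 of the 163 summits lay upstream. The assigned gene was the same in all 3 replicates for 218 members and the class for 238. These intervals and those below cover counting error only.

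**Figure D2:**
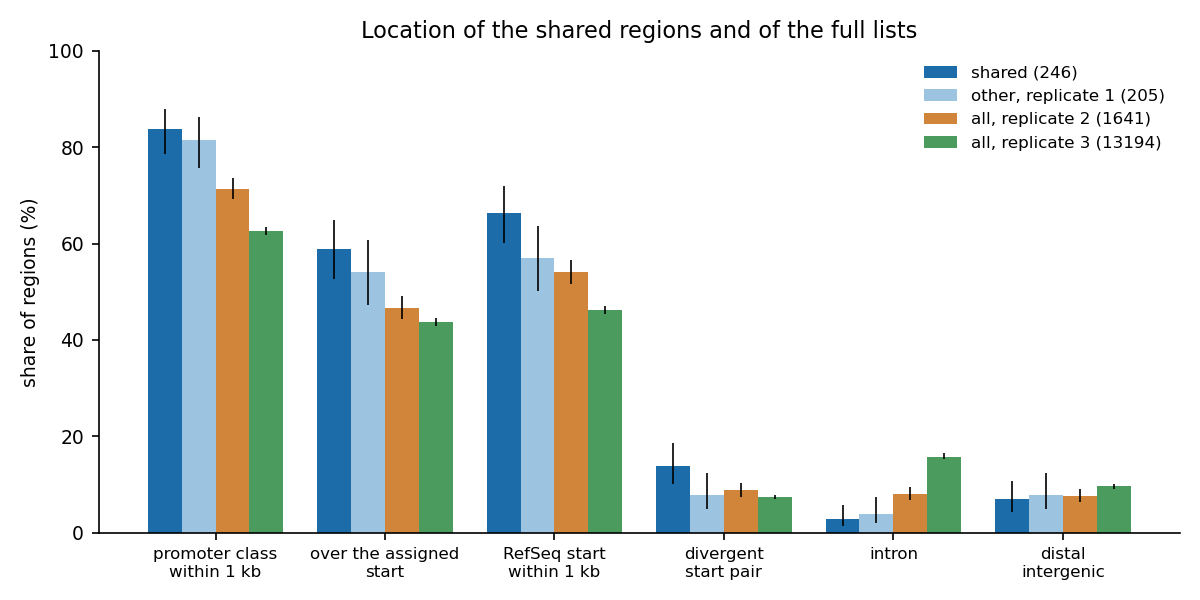
Share of regions (percent) with each feature of location, for the shared regions, the other regions of replicate 1 and the full lists of replicates 2 and 3. Bars start at 0 and the lines are 95% Wilson intervals. The promoter class holds 83.7% of the shared regions and 62.6% of the regions of replicate 3.

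The members outside promoters were few, with 17 in distal intergenic sequence, 7 in introns, 2 in exons, 3 just downstream of a gene and 1 in a 3′ UTR. The best ranked intronic member was in Zbtb16, a zinc-finger transcription factor, 98129 bp from its start, with folds of 7.82, 5.97 and 11.3. Next were intronic regions assigned to the unclassified transcript Gm37390 (5.33, 4.16 and 4.74) and to the long non-coding RNA gene 4930568G15Rik (4.80, 4.51 and 5.27). Of the distal members, 2 of the 3 best ranked were assigned to Pck1, the enzyme that starts gluconeogenesis, at chromosome 2, 173171394 to 173171888 and 173173548 to 173173922 (GRCm38, as for all positions here). The first of these had folds of 8.84, 4.85 and 7.21 and lay 18311 bp from the start of Pck1, and the second had 5.15, 4.32 and 6.83 and lay 20465 bp from it. The remaining one was assigned to Gm44734, with folds of 5.97, 5.55 and 7.14. An assigned gene at such a distance is the annotation's nearest gene and no more.

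The 3′ UTR member lay in Pou3f3, a POU-domain transcription factor of neural cells, with folds of 6.71, 7.05 and 15.3. Its width grew from 367 bp in replicate 1 to 3422 bp and 9604 bp in replicates 2 and 3, and the match of replicate 3 was assigned to the neighbouring non-coding gene Pantr2. Downstream of genes lay members at Sncb, which encodes beta-synuclein (7.16, 5.42 and 5.17), at Sh2d6 (4.67, 5.19 and 10.7) and at Gm14488 (4.96, 4.53 and 8.07). The exonic members were assigned to Gm49502 (4.45, 5.94 and 3.93) and to Hacl1, a peroxisomal lyase of fatty acid oxidation (3.15, 5.48 and 10.4), whose distance to its start is given as -20320 bp. In the classes between 1 and 3 kb from a start, the members included Gm26698 and D030034A15Rik (1 to 2 kb) and Gm44780 and Zcchc2 (2 to 3 kb). Gm26698 ranked best of them, with folds of 10.5, 7.62 and 14.8.

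No member lay on the X chromosome, which held 3 regions of replicate 1, 17 of replicate 2 and 252 of replicate 3. Of the autosomes, chromosome 2 held most members (22 of its 37 regions of replicate 1) and chromosome 12 fewest (6 of 15). By type of assigned gene, 195 members (79.3%, 73.8 to 83.9) belonged to coding genes, 20 to lincRNA genes, and 9 each to antisense transcripts, processed transcripts and unclassified (TEC) transcripts. The 246 members were assigned to 231 distinct genes, 183 of them coding, which is 0.836% of 21900 coding genes. A region of replicate 1, 2 or 3 was assigned to 1.51%, 5.16% and 31.4% of coding genes.

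Members were narrow in replicate 1 and became wider in the longer lists. Median widths were 376.5 bp in replicate 1, 528 bp in the matches of replicate 2 and 1000.5 bp in those of replicate 3, and 240 members were wider in replicate 3 than in replicate 1. Members were wider than the other 205 regions of replicate 1, which had a median of 294 bp; a wider region also has more room to overlap another, so width is not independent of the rule. Of the members, 220 lay wholly inside their match of replicate 3 and 107 inside that of replicate 2. Matches of 2 kb or more were 60 in replicate 3 and 11 in replicate 2, and no member reached that width in replicate 1. The median member had 1 summit in replicate 1 and 2 in replicate 3.

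**Figure D3:**
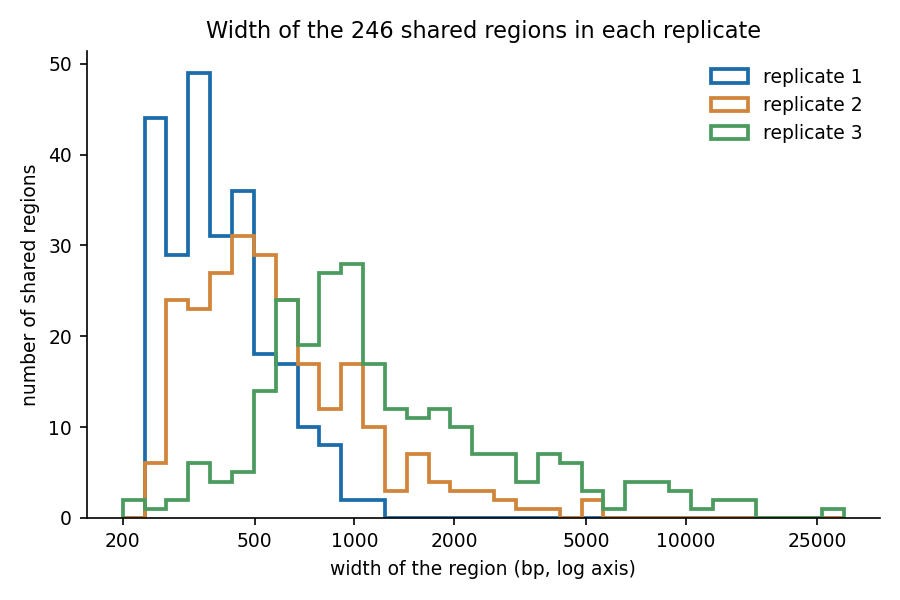
Number of shared regions by width in bp (log axis), drawn as 1 outline for each replicate. The medians lie at 376.5 bp, 528 bp and 1000.5 bp in replicates 1, 2 and 3, and the outline of replicate 3 runs on to 26649 bp.

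The widest members of replicate 1 lay at 2410080I02Rik (1192 bp), Brd2 (1166 bp), Gm36967 (1004 bp), 4932441J04Rik (926 bp) and Lnpep (907 bp). Brd2 encodes a bromodomain protein that reads acetylated histones, and Lnpep a membrane aminopeptidase. Among the narrowest were A330023F24Rik at 233 bp and Ube2b at 238 bp. Narrow members could fall inside very broad matches: the Hoxa9 member, 243 bp wide in replicate 1 and 292 bp in replicate 2, lay in a replicate 3 region of 26649 bp with folds of 4.18, 4.55 and 8.89. Hoxa9, a homeobox factor of axial patterning, was named for this width after the values were seen. At Brd2, 3 members shared 1 replicate 3 match of 4327 bp. Smad7, an inhibitor of TGF-beta signalling, also had 3 members, in a match of 7925 bp, and 11 further genes had 2 each, among them Bhlhe40, Nfia, Pck1 and Zeb2.

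Divergent neighbours, here 2 RefSeq starts at most 1 kb apart that point away from each other, were found at 34 members (13.8%, 10.1 to 18.7). The same share was 7.80% (4.86 to 12.3) in the other regions of replicate 1, 8.78% in replicate 2 and 7.34% in replicate 3. Within the promoter class it was 16.5% (12.1 to 22.2) of members and 9.58% (5.98 to 15) of the others of replicate 1, and the intervals overlap in both cases. Of 17492 coding genes with a RefSeq start, 13.2% had a divergent neighbour with starts at most 1 kb apart. That value counts genes in a pair, while the shares above count regions within 1 kb of any pair. Of the 246 members, 163 had a RefSeq start within 1 kb at all. The share of genes is therefore not directly comparable with the shares of regions. Both genes of the pair were coding at 21 members, 1 was coding at 12, and neither at 1. The member touched the stretch between the starts in 28 cases, and the starts were at most 200 bp apart in 15. With coding genes alone counted the share was 8.54%, and without replicate 1 it was 8.66%.

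The 10 best ranked divergent members included pairs of coding genes and pairs with a non-coding or uncharacterised transcript. Ube2q1, a ubiquitin-conjugating enzyme, was paired with the transcript 4632404H12Rik across 209 bp, with folds of 11.3, 7.76 and 8.51. Ctsa, the lysosomal protease cathepsin A, was paired with Neurl2 across 177 bp (7.60, 7.57 and 9.44). Gtf2h1, a subunit of the general factor TFIIH, was paired with Hps5 across 213 bp (6.41, 4.99 and 7.34). Hps5 is a subunit of a complex for lysosome-related organelles, and the region was assigned to it in replicate 2. Atp6v0d1, a subunit of the proton pump of lysosomes, was paired with the transcript Gm38250 across 116 bp (5.91, 5.97 and 7.90).

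The other members of that ranking were similar in strength. Washc2, a subunit of the endosomal WASH complex, was paired with 9530062K07Rik across 40 bp (8.57, 4.73 and 7.03). Fam118b was paired with Rpusd4, a mitochondrial RNA-modifying enzyme, across 76 bp (8.06, 6.50 and 5.10). Fahd1 was paired with Hagh, both metabolic enzymes, across 188 bp (8.07, 4.73 and 6.88). Proser1 was paired with Nhlrc3 across 537 bp (5.94, 9.22 and 12.2). Atf7ip, a cofactor of histone methylation, was paired with Gm44140 across 98 bp (7.15, 5.59 and 8.77). The non-coding pair Gm12758 and Gm12762 stood 54 bp apart (6.48, 5.04 and 6.64). The 34 divergent members had median folds of 5.30, 4.58 and 6.59, against 5.09, 4.67 and 6.71 for the other 212.

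To describe function, 125 of the 183 coding genes were placed in 10 groups of role after their values had been seen, so the groups are an ordering and not evidence. Lysosomal genes had the highest median fold of any group in each replicate: their 14 members had medians of 6.64, 6.59 and 9.59, against 5.16, 4.63 and 6.72 for all 195 coding members. All 14 lay in the promoter class, none had a replicate 3 match of 2 kb or more, and 12 of the 13 over a RefSeq promoter window had a CACGTG there. The median width of the replicate 3 match was 745 bp for the lysosomal group and 999 bp for all coding members, of which 42 of 195 had a match of 2 kb or more. It was 1199 bp for transcription factors, 1252.5 bp for chromatin and transcription cofactors and 2362.5 bp for signalling genes, with 9 of 22, 6 of 18 and 7 of 14 members at 2 kb or more. Some of these share a match, as the 3 members of Smad7 and the 2 of Ppp2r3d do, so they are not separate measurements of width.

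**Figure D4:**
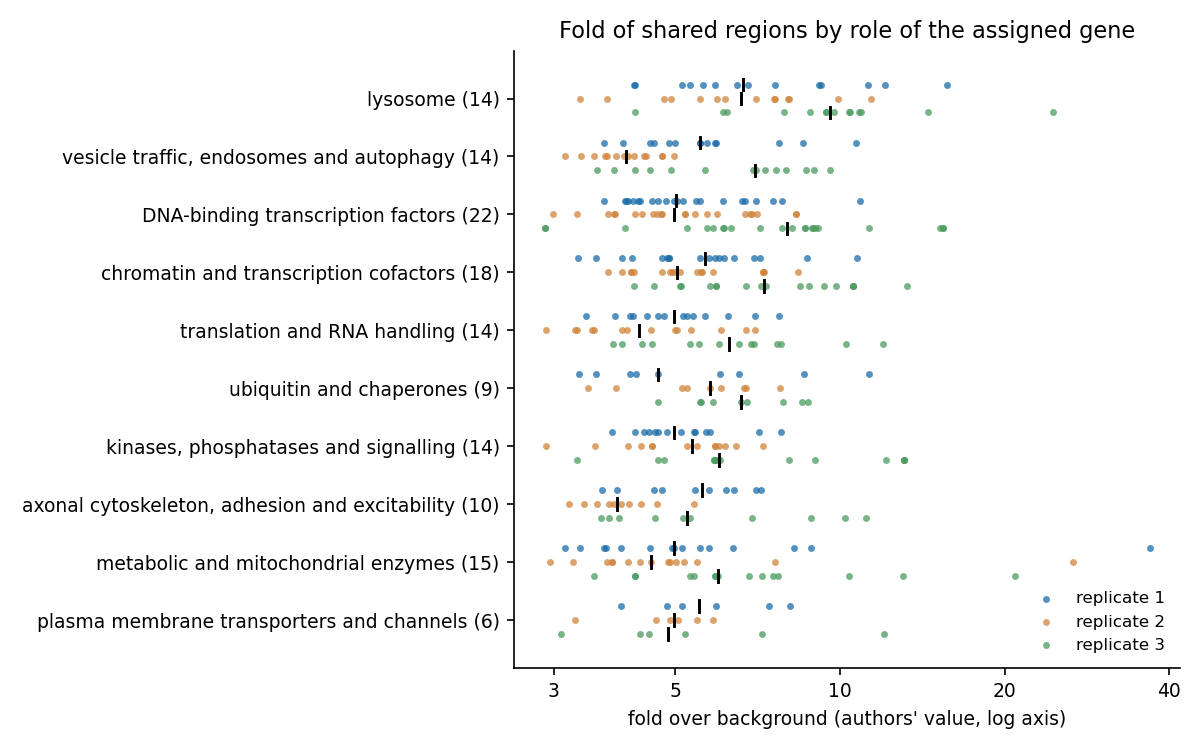
Fold over background (log axis) of the shared regions by role of the assigned gene, with 1 point for each region and replicate and a black line at each median; the number of regions stands in parentheses. The lysosomal group has medians of 6.64, 6.59 and 9.59 in replicates 1, 2 and 3.

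Lists of known pathway genes show how many listed genes had no member. Of 158 genes in the 4 lysosomal lists, 13 (8.23%, 4.87 to 13.6) had a member, against 0.836% of all coding genes. The background is higher in each single list: 21 of the 158 had a region in replicate 1, 23 in replicate 2 and 104 in replicate 3, where 1.51%, 5.16% and 31.4% of coding genes did. By list, the counts were 8 of 53 membrane proteins and transporters (15.1%, 7.85 to 27.1), 3 of 59 hydrolases and activators (5.08%, 1.74 to 13.9), 2 of 19 V-ATPase subunits (10.5%, 2.94 to 31.4) and 0 of 27 sorting receptors and tagging enzymes (0 to 12.5%). These intervals overlap, and the differences between the lists were not tested. Earlier results of these data had already shown lysosomal genes among the strongest regions, so these counts are no independent support.

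Among lysosomal membrane proteins, the abundant glycoprotein Lamp1 had folds of 15.7, 11.4 and 24.5, and the transporter Mfsd1 12.1, 9.93 and 14.5. The calcium channel Mcoln1 had 9.22, 8.03 and 10.4, and Pip4p1, a phosphoinositide phosphatase, 9.17, 7.01 and 8.80. Spns1, an exporter of lysophospholipids, followed with 6.79, 7.60 and 10.9 (chromosome 7, 126377257 to 126377593). These 5 were above 6.5 in every replicate. The other listed members were Bloc1s1, a subunit of a complex that positions lysosomes (5.63, 8.08 and 6.12), the chloride exchanger Clcn7 (5.33, 5.55 and 10.9) and the sialomucin Cd164 (4.19, 4.91 and 6.21). They were lower than the 5 in replicate 1 but overlapped with them in replicate 2 for Bloc1s1 and in replicate 3 for Clcn7.

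Among the hydrolases and their activators were Ctsa, given above, Hexa, which cleaves gangliosides as part of beta-hexosaminidase (11.3, 6.16 and 9.74), and Sumf1, the activator of sulfatases (5.13, 3.75 and 4.22). Of the V-ATPase, which acidifies the lysosome, both members encode subunits of the membrane sector: Atp6v0d1, given above, and Atp6v0b (4.22, 3.34 and 9.41). Lamtor1, an anchor of the mTORC1 kinase on the lysosome, had 6.48, 4.77 and 10.4, and Tsc1, which restrains mTORC1, had 5.41, 4.10 and 4.77. These were 2 of 37 genes in the list of mTORC1 docking and MiT/TFE genes. A region assigned to the antisense transcript Gm12905 (6.91, 7.41 and 9.78) was assigned in replicate 3 to Rragc, a Rag GTPase of the same pathway. Of 48 autophagy genes 2 had members (4.17%, 1.15 to 14.0), against the same 0.836%. They were Gabarap, a ubiquitin-like protein of autophagosomes (3.71, 3.55 and 8.68), and the receptor Calcoco1 (4.86, 3.15 and 3.86), the latter at a distance of -24547 bp.

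In the list of translation factors and tRNA synthetases 4 of 79 genes had a member (5.06%, 1.99 to 12.3), against 0.836% of coding genes. Eif4g1, the scaffold of the cap-binding complex, had folds of 7.0, 6.06 and 7.81 at chromosome 16, 20672512 to 20672862. Its relative Eif4g2 had 4.19, 3.28 and 4.35, and the elongation factors Eef2 and Eef1b2 had 5.16, 4.52 and 3.85, and 3.44, 7.0 and 10.2. Cytosolic ribosomal proteins had 0 of 78, and mitochondrial ribosome and translation genes 0 of 85. Of 79 heat shock and chaperone genes 4 had members (5.06%): Get4, of tail-anchored protein insertion (8.58, 6.73 and 6.76), Hspa4 (4.65, 6.06 and 5.54), the mitochondrial chaperone Hspa9 (4.12, 5.14 and 7.87) and Trap1 (3.58, 5.24 and 5.86). The ubiquitin-conjugating enzymes gave Ube2q1 and Ube2b (4.23, 3.89 and 8.75), 2 of 39, and the proteasome list 0 of 45.

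Several large housekeeping lists had no member at all. Besides the ribosomal and proteasome lists, the count was 0 of 80 splicing genes, 85 DNA repair genes, 67 mitosis and replication genes, 87 genes of RNA decay, 3′ processing and export, 80 of endoplasmic reticulum to Golgi traffic, 43 of sterol synthesis and transport and 33 of the peroxisome. With 0.836% of all coding genes having a member, a count of 0 in a list of such a size is near the background. Regions of replicates 1, 2 and 3 were assigned to 0, 9 and 53 of the 78 cytosolic ribosomal genes and to 1, 11 and 59 of the 80 splicing genes, where the shares of coding genes were 1.51%, 5.16% and 31.4%. The mitochondrial lists gave Supv3l1, an RNA helicase (7.74, 6.74 and 6.97), and Atp5d, a subunit of ATP synthase (3.70, 4.09 and 3.54).

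Among transcription factors, the clock list had 3 of 26 genes (11.5%, 4.00 to 29.0), against 0.836% of all coding genes. These were the repressors Bhlhe40 (7.56, 5.70 and 8.64 at its stronger member), Bhlhe41 (5.04, 6.72 and 7.84) and Nr1d1 (5.16, 4.73 and 7.13), all of which act in the negative arm of the clock. Of 48 AP-1 and immediate early genes, 3 had members (6.25%, 2.15 to 16.8). Atf4, the effector of the integrated stress response, had 7.03, 5.20 and 6.14 at chromosome 15, 80255195 to 80255512, and the kinase Pim3 had 7.80, 7.22 and 8.06. The Fos member, 11938 bp from the start, had 5.44, 5.22 and 2.88. Of 19 RUNX family and cofactor genes, 1 had a member (5.26%, 0.935 to 24.6). It was Kmt2a, a histone H3 methyltransferase that binds Runx1 (6.97, 5.87 and 6.72 at chromosome 9, 44881317 to 44881609).

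Chromatin regulators were 4 of 89 in the list of histone acetylation, Polycomb and Trithorax genes. Besides Kmt2a they were Brd2 (5.77, 5.48 and 10.6 at its best ranked member), the Polycomb reader Cbx6 (6.15, 4.89 and 4.20) and the methyltransferase Setd1a (4.86, 4.73 and 4.56). Of 89 genes of the Pol II machinery and Mediator, Gtf2h1 alone had a member (1.12%, 0.199 to 6.09), and this interval includes 0.836%. Aff4, the scaffold of the super elongation complex, stood higher in replicate 1 than in the others, with 10.8, 7.27 and 5.94 (chromosome 11, 53350325 to 53350950). Of 57 amino sugar and glycosylation genes only Amdhd2 had a member (1.75%, 0.310 to 9.29), and this interval also includes 0.836%. The Amdhd2 member was the best ranked of the whole set, with 36.8, 26.7 and 20.9.

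The remaining genes ranked 21 to 40 covered many roles. Mtdh, an oncogenic membrane protein, had 11.1, 6.73 and 6.08 (chromosome 15, 34082474 to 34082900), and Cdk4, a kinase of the G1 phase, 7.11, 6.00 and 12.1 (chromosome 10, 127063305 to 127063624). Trpm7, a magnesium channel with a kinase domain, had 7.41, 5.06 and 7.21. Ubald1 had 6.63, 7.22 and 8.43, Fndc3a 6.62, 6.38 and 9.47, and Rcbtb1 6.41, 5.42 and 7.59. The non-coding genes were Gm32569 (9.18, 7.05 and 5.69), Frmd8os (6.67, 11.2 and 17.3) and 2900072N19Rik (7.21, 5.54 and 5.24). Replicate 3 was highest at Cdk4, Frmd8os, Ubald1, Fndc3a and Rcbtb1, and replicate 1 at Mtdh, Trpm7, Gm32569 and 2900072N19Rik, so the order of replicates differed from gene to gene.

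The sequence of promoters under members was then set beside that of all promoters. Members overlapped 178 RefSeq promoter windows of 300 bp, and CACGTG was in 79 of them (44.4%, 37.3 to 51.7), against 7.15% of all 32851 windows. The 178 windows lay under 134 members, so some members count more than once, while the interval takes each window as separate. By member, 64 of the 134 had CACGTG in a window. Without replicate 1, for regions of replicate 2 that overlap replicate 3, the share of windows was 22.5% (185 of 823 windows). The share was not particular to the shared regions, since windows under the other regions of replicate 1 had it in 44.3% (35.8 to 53.1). It was 12% in windows under replicate 3 regions outside the set, and 11% in all windows whose GC content lay between the quartiles of the windows under members. Of the 79 windows nearly all had the longer form TCACGTG, which was in 76 (42.7%, and 3.77% of all windows). The E-box was more frequent at higher rank: dividing the members into 3 equal groups by rank, it was found in 35 of 53 members over a window in the best ranked group, 18 of 38 in the middle and 11 of 43 in the last.

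**Figure D5:**
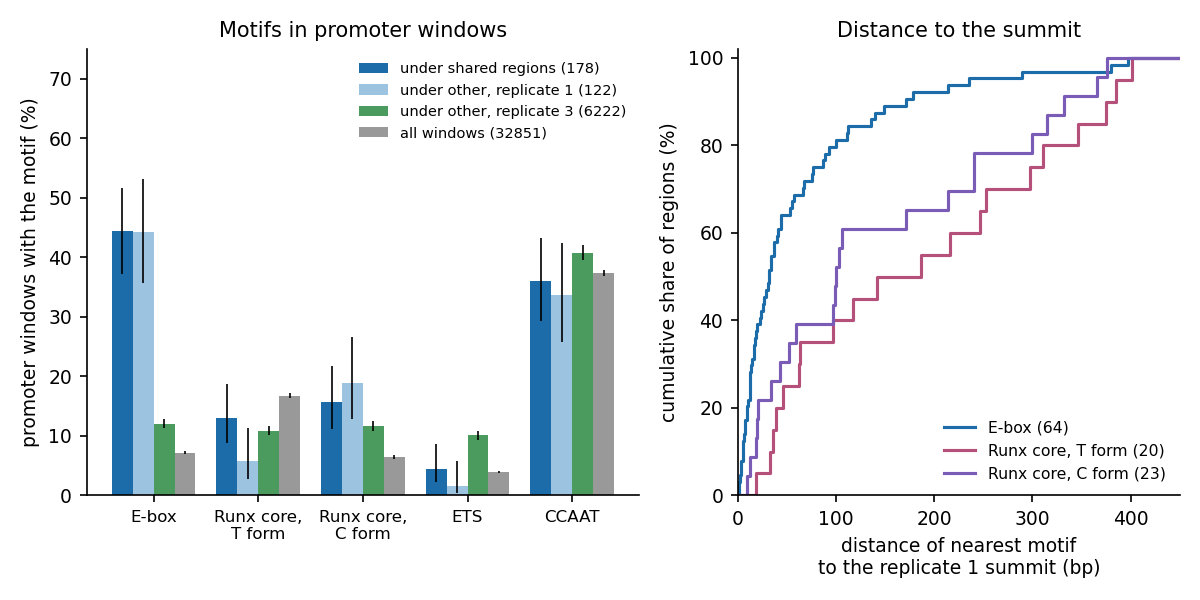
Left, share of promoter windows (percent) with a motif, for windows under shared regions, under the other regions of replicates 1 and 3 and for all windows, with 95% Wilson intervals. Right, cumulative share of shared regions (percent) by the distance in bp from the replicate 1 summit to the nearest motif in their window. The E-box is in 44.4% of the windows under shared regions and in 7.15% of all windows, and its curve lies furthest to the left.

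Of the 6 motifs whose distance was measured (the E-box, both RUNX forms, the ETS site, the GC box and the CCAAT box), the E-box had the shortest median to the replicate 1 summit. In the 64 members with a CACGTG in their window, the nearest was at a median of 31.5, 51.5 and 29.5 bp from the strongest summit of replicates 1, 2 and 3, and in 41 of the 64 within 50 bp in replicate 1. The median was 34.5 bp in the other regions of replicate 1. It was 98.5 bp in regions of replicate 2 outside the set and 86 bp in those of replicate 3. Members with an E-box had median folds of 5.92, 4.94 and 7.27, and the 70 over a window without one had 4.65, 4.45 and 5.95. Of 12 members of lysosomal list genes over a window, 11 had CACGTG, against 53 of 122 other members. The full lysosomal regulatory element known as CLEAR, in its palindromic form with the E-box at its centre, was in none of those 12 and in 7 of the 122 others.

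The RUNX core was less distinct. The form TGTGGT was in 12.9% (8.77 to 18.6) of windows under members and in 16.8% of all windows, and TGCGGT in 15.7% (11.1 to 21.8) and 6.45%. Either was in 27.0% (21 to 33.9) and 22.4%. The median distance to the replicate 1 summit was 164 bp for TGTGGT (20 members) and 99.5 bp for TGCGGT (23 members). Matches for other factors were the GC box GGGCGG (68.0% of windows under members and 35.7% of all), the CCAAT box ATTGG (36.0% and 37.4%), the YY1 core AAGATGG (7.30% and 6.34%), the ETS site CCGGAAGT (4.49% and 3.89%), the CRE TGACGTCA (3.93% and 1.79%) and the AP-1 site TGANTCA (3.37% and 7.81%). The NRF1 site, searched as its GC-rich palindrome, was in 3.93% and 0.971%. Median GC content was 65.0% in windows under members and 52.7% in all. In windows with GC content between the quartiles of those under members, TGTGGT was in 11.6%, TGCGGT in 10.9%, either in 21.4% and GGGCGG in 74.8%. There ATTGG was in 36.2%, AAGATGG in 6.56%, CCGGAAGT in 8.21%, TGACGTCA in 3.38%, TGANTCA in 4.09% and the NRF1 site in 2.11%. For the GC box, the ETS site and TGTGGT the direction of the difference from members turned with this background. Both strands were searched, and CACGTG is contained in TCACGTG and in CLEAR. A match is a description of the letters in these windows and says nothing of which protein was bound.

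Markers of the cell types of the cord were in the set at a share close to that of all coding genes. None of 35 microglia and macrophage genes had a member, nor any of 30 oligodendrocyte, 32 neuron, 24 endothelial, mural and meningeal or 30 blood cell genes. Of 22 astrocyte genes only Nfia had one (4.65, 4.34 and 9.01 at its better ranked member), and Nfia is a factor of several neural lineages. Together 1 of 173 marker genes had a member (0.578%, 0.102 to 3.20), close to the 0.836% of coding genes. In the full list of replicate 1, 6 of the 173 had a region, where 1.51% of coding genes did. They were 3 of 32 neuron, 2 of 22 astrocyte and 1 of 30 blood cell genes. In the full lists of replicates 2 and 3, where 5.16% and 31.4% of coding genes had a region, oligodendrocyte genes had regions at 16 and 29 of 30, neuron genes at 4 and 21 of 32 and astrocyte genes at 4 and 8 of 22. Microglia and macrophage genes had them at 1 and 5 of 35, endothelial, mural and meningeal genes at 0 and 0 of 24, and blood cell genes at 0 and 2 of 30. The differences between cell types, and which cells gave the signal, were not tested.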

How the data were processed

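Runx1 ChIP-seq of mouse spinal cord was analysed for 3 replicates of 1 group. Per the submitters' processing notes, the tools included MACS2 2.1.2, Picard 2.18.26, SAMtools 1.9, Bowtie2, FastQC and Trimmomatic 0.38, with the build GRCm38. Neither parameters nor a control library is given in the sources used here. Peaks were called on each replicate separately, per the deposited files. For each summit the deposited lists hold the authors' score, −log10 p, −log10 q and the fold, a ratio of signal to background, with the lowest −log10 q at 2.00 in replicate 2. The authors' annotated tables give each region's class, assigned gene and distance to its start.

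Regions with several summits were counted once, with the fold of the strongest. Starts were converted to count from 1. Members were ranked by the lowest of their 3 within-list percentiles of fold. Read depth is not given in the sources used here, so precision cannot be stated per region; the 95% Wilson intervals of shares cover counting error only. RefSeq starts, genes and 32851 promoter windows (250 bp before to 50 bp after a start, 27025 genes, GRCm38.p6) were used for divergent pairs, gene counts and motifs; no sequence outside these windows was used. Of the 183 coding genes of members, 180 matched the RefSeq table.

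The members, the 33 gene lists (1728 genes) and the 12 motifs were chosen with earlier results of these data known, and the role groups after the values were seen. Named genes were those ranked 21 to 40, list genes with a member (the 8 best ranked at most), the 10 best ranked divergent members, the 3 best ranked of each class outside the nearest promoter class, the 5 widest and 3 narrowest, the 3 on each side of the overlap limit, and those whose promoter is shown; other names were chosen after their values were seen. A few genes named by the rule are left unreported. No test was made, since the members were selected on the same peaks and there is 1 group. Alternatives were stricter overlaps, limits on q and fold, equal list lengths, other anchors, other gene and start definitions, and leaving out each replicate. The scripts were tested on simulated data. The software was matplotlib 3.10.9, scipy 1.17.1, pandas 2.3.3 and numpy 2.4.6 under Python 3.11.15.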

Additional observations from a re-analysis of the deposited data

How the results depend on the processing

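Of 84 recomputed values, 51 stayed within the limit set for them (a count within 1.5 times, a share within its Wilson interval, a median width within the SD of the 3 replicates' medians). The limit for width was loose, since those medians were 376.5, 528 and 1000.5 bp. The 10 of 11 widths that stayed within it therefore say little about stability. The number of shared regions, 246, fell to 65 with an overlap of 50% of both regions, 142 with summits within 200 bp, 117 with a −log10 q of at least 5, 64 with a fold of at least 5 and 83 with equal list lengths. The coding genes, 183, fell with them to 51, 116, 97, 51 and 61, and the lysosomal list genes, 13, to 5 with 50% of both regions. Under the limits on q, fold and list length, the promoter share rose to 88.0%, 92.2% and 88.0%, and the CACGTG share to 55.2%, 67.3% and 55.2%; the latter was 54.5% with 50% of both regions and 54.3% with summits within 200 bp. Taking the regions of replicate 3 as the set gave a median width of 990 bp and a CACGTG share of 36.6%. A RefSeq start within 1 kb was found for 66.3%, against 83.7% in the promoter class of the authors' annotation. Divergent pairs of coding genes alone were at 8.54%. In the windows of assigned genes, in place of overlapped ones, CACGTG was in 30.9%. The cause of these shifts was not tested. Without replicate 1, 2 or 3, in turn, the number ranged from 249 to 1512, coding genes from 186 to 1029, lysosomal genes from 13 to 23, the promoter share from 71.7% to 83.5%, the median width from 338 to 440 bp, the divergent share from 8.66% to 13.7% and the CACGTG share from 22.5% to 45.7%. Leaving out replicate 1 gave the 1512 regions, the lowest shares (promoter 71.7%, divergent 8.66%, CACGTG 22.5%) and 1029 coding genes. The median of 440 bp also came from there and is a width of replicate 2 regions. It is therefore not directly comparable with the 376.5 bp of replicate 1. Leaving out replicate 2 gave 427 regions, 312 coding genes and 21 lysosomal genes. No paired analysis was possible because all 3 replicates belong to 1 group. Read depth was not known, so weak regions missed in the shortest list cannot be told apart from absent ones.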
